A study of Mus musculus with 2 samples.

Results

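Xcl1-positive CD8 T cells outside the cell cycle were described in MC38 tumours of wild-type (WT) and Ifnar1-SA mice. MC38 is a mouse colon adenocarcinoma line. Immune cells from the tumours were profiled on day 14 by droplet-based single-cell RNA sequencing, with 1 library per genotype. The Ifnar1 gene codes for the IFNAR1 subunit of the receptor for type I interferons. The sources used here do not give the meaning of SA, the number of animals behind a library or their age. A cell was a member when its UMIs (unique molecular identifiers, each a captured transcript) summed to at least 3 over Cd3d, Cd3e, Cd3g and Trac and at least 2 over Cd8a and Cd8b1, with no Cd4 or Foxp3, fewer than 10 over the macrophage genes C1qa, C1qb, C1qc, Lyz2 and Csf1r, fewer than 3 over the cell cycle genes Mki67, Top2a, Ube2c and Birc5, and at least 3 of Xcl1. In all 257 of 9059 kept barcodes were members, 106 of 4058 in WT and 151 of 5001 in Ifnar1-SA. The cells were thus chosen by their measured levels of those genes, which are given as description. Nothing here has a replicate check, intervals cover counting error only, and "higher" and "lower" compare these 2 libraries.

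CD8 T cells recognise peptide on MHC class I and, once activated, secrete cytokines and chemokines and kill target cells with perforin and granzymes. XCL1 is a chemokine made by activated CD8 T cells and natural killer (NK) cells. Its receptor XCR1 is carried by cross-presenting dendritic cells, which take up material of dying tumour cells, and the same dendritic cells carry CADM1, the ligand of the T cell adhesion receptor CRTAM. Type I interferon signals through IFNAR1 and IFNAR2 to factors that bind the interferon-stimulated response element (ISRE) and switch on antiviral genes.

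One label names CD8 T cells and another all infiltrating immune cells, and other immune cells were abundant in both libraries, with 1492 macrophage barcodes in WT and 1942 in Ifnar1-SA. Total depth was 55497066 UMIs for WT and 62732220 for Ifnar1-SA. The median WT member held 7114 UMIs and the median Ifnar1-SA member 5977. The libraries shared 7 kept barcodes, and no barcode was a member in both. Among members, 103 WT cells had Xist and no Y-linked UMI and none had a Y-linked UMI. In Ifnar1-SA 121 members had Xist only, 17 had Y-linked UMIs only and 13 had neither, so that library held cells of more than 1 animal and of both sexes. The member share and the levels of Ccl3, Ccl4, Ifng and Itga4 are also given by these transcripts. Of Xcl1-low cells with UMIs of only 1 kind, 25.7% (95% interval 21.1 to 30.7) were Y-linked in Ifnar1-SA, against 12.3% (7.34 to 19.0) of members.

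The members made up a larger share of the CD8 T cells in the Ifnar1-SA library. Of non-cycling CD8 T cells, 14.97% (exact Clopper-Pearson 95% interval 12.4 to 17.8, 106 of 708) were members in WT and 27.4% (23.7 to 31.3, 151 of 552) in Ifnar1-SA. Of all CD8 T cells the share was 10.8% (8.94 to 12.9) in WT and 22.6% (19.5 to 26.0) in Ifnar1-SA. Of all kept barcodes it was 2.61% (2.14 to 3.15) and 3.02% (2.56 to 3.53), with intervals that overlap. The denominators differ because CD8 T cells numbered 980 in WT and 668 in Ifnar1-SA. Among cycling CD8 T cells, which are no members, 25.7% (20.6 to 31.4) in WT and 37.9% (29.1 to 47.4) in Ifnar1-SA also reached 3 Xcl1 UMIs. With non-cycling CD8 T cells thinned to 2000 UMIs each, which left out 83 and 61 shallower cells, 9.76% (7.55 to 12.4) and 19.3% (15.9 to 23.1) reached 3 Xcl1 UMIs. The share in Ifnar1-SA differed by sex-linked transcripts. Among non-cycling CD8 T cells with Xist only, 15.1% (12.5 to 18.1, 103 of 680) were members in WT and 33.0% (28.2 to 38.0, 121 of 367) in Ifnar1-SA. Of the 102 Ifnar1-SA cells with Y-linked UMIs only, 16.7% (10.0 to 25.3) were members, and of the 79 with neither 16.5% (9.06 to 26.5), both close to the WT share. Depth differed between these groups too. The median Ifnar1-SA member held 6471 UMIs with Xist only, 4235 with Y-linked UMIs only and 4440 with neither. The split was not made on thinned cells, so the part of depth in it was not tested.

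**Figure D1:**
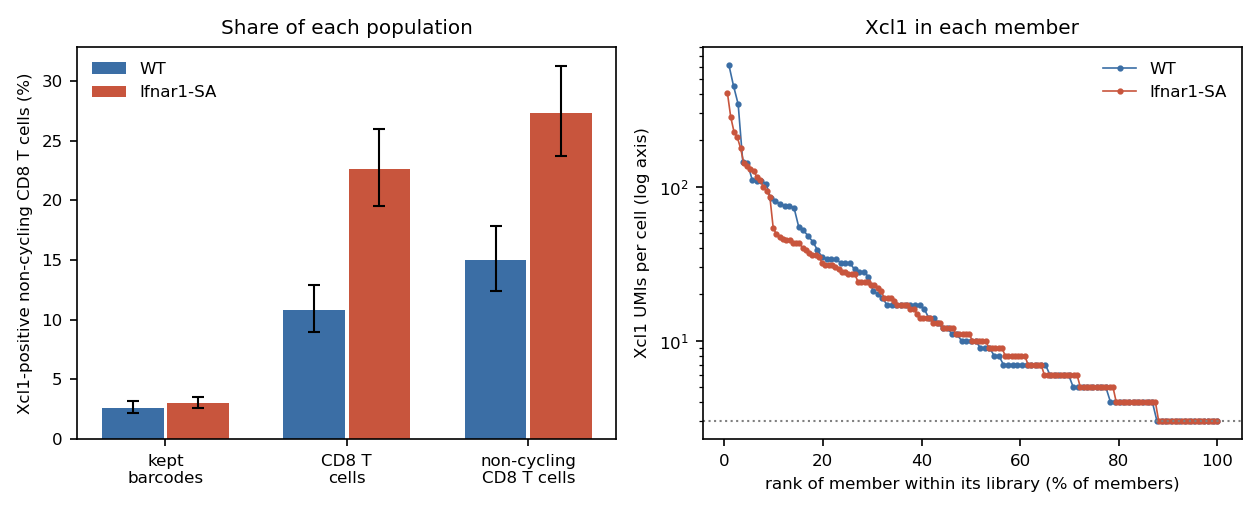
Left, members as a percentage of kept barcodes, CD8 T cells and non-cycling CD8 T cells in WT (blue) and Ifnar1-SA (red), with exact 95% binomial intervals as error bars; right, Xcl1 UMIs of each member on a log axis, ranked from highest to lowest within its library, with the minimum of 3 as a dotted line. Members are 14.97% of non-cycling CD8 T cells for WT and 27.4% for Ifnar1-SA, and the median member holds 10 Xcl1 UMIs in both.

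Xcl1 itself (ENSMUSG00000026573, protein-coding, chromosome 1, 164931644 to 164935527 on the minus strand of GRCm38, the assembly also called mm10) varied widely among the members. WT members held 3 to 617 Xcl1 UMIs with a median of 10, and Ifnar1-SA members 3 to 403 with a median of 10. In CPM, the UMIs of a gene scaled to a total of 1000000 UMIs over the summed members, Xcl1 stood at 4480 in WT and 3999 in Ifnar1-SA. A few cells carried much of it, since the 5 highest members held 44.9% of its UMIs for WT and 30.3% for Ifnar1-SA. The members were 2.61% and 3.02% of kept barcodes and held 47.1% and 52.2% of all their Xcl1 UMIs. Just inside the minimum lay 14 WT and 19 Ifnar1-SA cells with 3 UMIs, and just outside it 16 and 18 cells with 2.

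The receptor side of the axis was found in other cells. Xcr1 was at 0 UMIs in WT members and 1 UMI in Ifnar1-SA members, and Cadm1 and the dendritic cell receptor gene Clec9a were at 0 in both. Barcodes with Xcr1 and fewer than 3 T cell UMIs numbered 34 in WT and 43 in Ifnar1-SA. In these, Xcr1 was at 216 CPM (WT) and 212 CPM (Ifnar1-SA), a level the choice of barcodes fixes, and Cadm1 at 57.0 and 74.2 CPM. Cadm1 over all kept barcodes was at 11.9 and 20.5 CPM. The Xcr1 barcodes held 32 of 564 Cadm1 UMIs in WT and 48 of 1092 in Ifnar1-SA, so most Cadm1 lay in other kept barcodes.

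Set against the remaining non-cycling CD8 T cells, those with fewer than 3 Xcl1 UMIs and here called Xcl1-low (602 in WT, 401 in Ifnar1-SA), the members stood higher in Crtam, Ccl1, Cd160, Ccl4 and Ccr7 and lower in 33 of 51 type I interferon-stimulated genes, Gzmc, Gzmf and Ccl5. No test applies, because the same cells were split by Xcl1. Of 4466 genes with a mean of at least 20 CPM in each library, 265 (5.93%) were past 1.5-fold higher in members in both libraries and 456 (10.2%) past 1.5-fold lower. The members were also the deeper cells, at medians of 7114 and 5977 UMIs against 4462 and 3851 in Xcl1-low cells.

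Crtam (ENSMUSG00000032021, chromosome 9, 40969691 to 41004628, minus strand), whose product binds CADM1, was at 129 CPM in WT members against 18.5 in WT Xcl1-low cells, a log2 ratio of 2.80. In Ifnar1-SA it was at 221 CPM against 30.8, a log2 ratio of 2.84. The ratio was close to the same in both libraries. Ccl1, a chemokine that attracts cells bearing CCR8, was at 1802 CPM against 79.3 in WT and at 1317 CPM against 293 in Ifnar1-SA. Cd160, a receptor for the ligand HVEM, was at 309 against 73.8 CPM in WT and at 332 against 116 CPM in Ifnar1-SA. The chemokine gene Ccl4 had log2 ratios of 1.97 and 1.59 and Ccr7, a homing receptor for lymph nodes, 2.82 and 1.33. Tnfsf11, which encodes RANKL, had 1.52 and 1.66, and Cd200, a ligand of an inhibitory myeloid receptor, 1.76 and 1.89. The other genes that ranked highest were Srm, for spermidine synthase, at 1.64 and 2.52, Ppan, a ribosome assembly factor, at 2.16 and 1.53, Rgcc at 1.46 and 1.80, Prelid2 at 1.76 and 1.45, and the pseudogene Olfr1369-ps1 at 1.69 and 3.96. Olfr1369-ps1 came from 7 WT and 6 Ifnar1-SA members, so its level describes those cells and not the population. Crtam was found in 34 of 106 WT and 70 of 151 Ifnar1-SA members, Ccl1 in 40 and 70 and Cd160 in 77 and 110. Ccl4 was found in 61 and 92 members and Ccr7 in 35 and 48. The 5 highest cells held 50.6% and 37.7% of Ccl1 UMIs, 70.6% and 51.7% of Ccl4 and 42.9% and 35.2% of Ccr7.

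Among gene lists, T cell cytokines and chemokines had 7 of 16 measured genes past 1.5-fold higher in members in both libraries and 2 lower. Genes of T cell receptor signal and early activation had 6 of 25 higher and 1 lower. Myc, a growth regulator, was among the higher ones at log2 1.51 in WT and 1.08 in Ifnar1-SA, with Rel, an NF-kB subunit, at 1.38 and 0.82 and Gadd45b at 2.12 and 1.21. Nr4a1, an early response gene of T cell receptor signalling, was at 0.34 and 0.06. Cytotoxic effector genes had 2 of 17 higher and 5 lower. Gzmb, for granzyme B, was at 451 CPM in WT members against 1145 CPM in Xcl1-low cells, and at 959 against 1331 CPM in Ifnar1-SA, where the difference was within 1.5-fold. Gzma, for granzyme A, went both ways, at 161 CPM against 283 in WT and at 256 against 185 CPM in Ifnar1-SA. Gzmf and Gzmc were lower still, at log2 -2.65 and -3.18 and at -1.67 and -1.98, though reads of these near-identical granzymes may be split by the counting. Ccl5 was lower in members at -0.95 and -1.65, and the surface protein gene Ly6c2 at -1.48 and -1.49. Bcl2, a survival gene, was at -1.44 and -0.59, and the adhesion gene Itga1 at -1.98 and -1.34. Fgl2, which encodes a fibrinogen-like protein secreted by T cells, was at -1.94 and -2.03 and Txnip, an inhibitor of thioredoxin, at -1.77 and -2.12. Padi2, Mxd1 and Cebpb also ranked among the 12 lowest, at -1.88 and -2.34, -1.83 and -1.60, and -1.58 and -1.62. Inhibitory receptors were mixed, with Pdcd1 (PD-1) at -0.55 and -0.32, Havcr2 (TIM-3) at -0.78 and -0.55 and Lag3 at -0.29 and 0.04. Tcf7, which marks stem-like T cells, was scarce, at 23.7 CPM in WT members and 20.5 CPM in Ifnar1-SA members, in 12 and 17 cells.

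**Figure D2:**
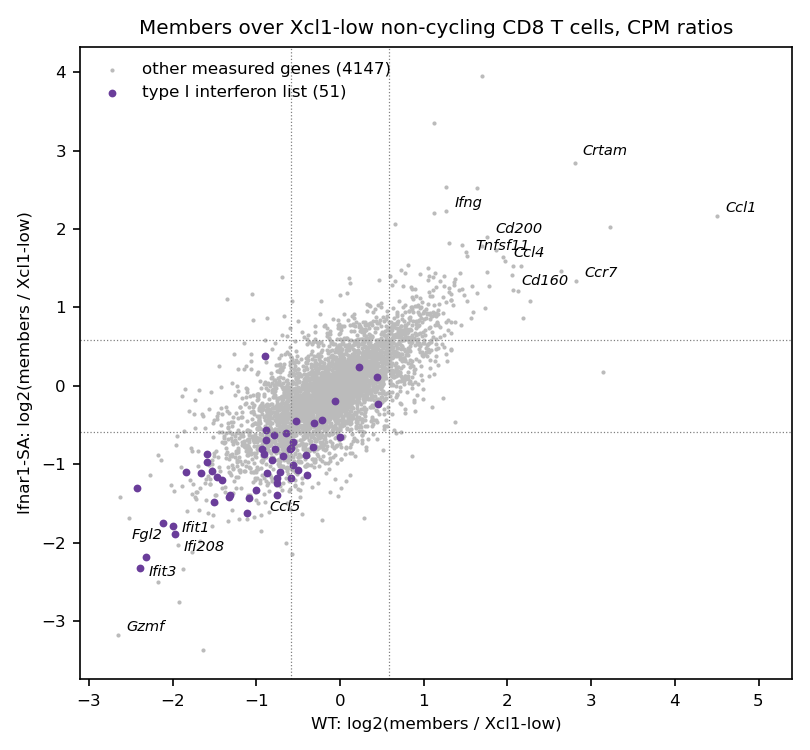
Each point is a measured gene, placed by its log2 CPM ratio of members over Xcl1-low cells in WT (horizontal) and in Ifnar1-SA (vertical), with genes of the type I interferon list in purple and 1.5-fold as dotted lines; gene classes left out of the naming rule are not drawn. Crtam and Ccl1 lie at the upper right, and 33 of the 51 type I interferon genes lie past 1.5-fold at the lower left.

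The type I interferon list lay low in the members of both genotypes. Of its 51 measured genes, 33 were past 1.5-fold lower in members than in Xcl1-low cells in both libraries and 0 past 1.5-fold higher, where 10.2% of all measured genes were that much lower. The list's median log2 ratio was -0.81 in WT and -1.01 in Ifnar1-SA, beside medians over all measured genes of -0.09 and -0.07. Its summed level was 7636 CPM in WT members against 11309 in WT Xcl1-low cells, and 10294 against 16668 CPM in Ifnar1-SA.

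Isg15, a ubiquitin-like protein of the antiviral response, was at 94.8 CPM in WT members (80 UMIs in 31 of 106 cells) and 262 CPM in WT Xcl1-low cells, a log2 ratio of -1.47 (-1.82 to -1.13). In Ifnar1-SA it was at 168 CPM in members (180 UMIs in 62 of 151 cells) and 375 CPM in Xcl1-low cells, a ratio of -1.16 (-1.40 to -0.92). Irf7, the factor that amplifies interferon production, was at -1.50 in WT and -1.48 in Ifnar1-SA, and at -3.23 and -1.73 with cells thinned to 2000 UMIs. Before thinning it was found in 19 of 106 WT members, so the thinned WT ratio rests on few UMIs. The antiviral genes Ifit1 and Ifit3 were at -1.99 and -2.39 in WT and at -1.79 and -2.32 in Ifnar1-SA. Ifit3 amounted to 12 UMIs in 7 WT members and 23 UMIs in 14 Ifnar1-SA members, and its ratio was -3.97 and -2.54 among cells with fewer than 10 Gzmb UMIs and -1.45 and -3.12 among cells with no macrophage UMI. Samd9l, an antiviral and growth-restricting gene, was at -2.12 and -1.75. The list was not uniform. Slfn2, needed for T cell quiescence, was at 0.23 in both, Ms4a4c at 0.45 and 0.12, and the most abundant gene, Ifi27l2a, at -0.21 and -0.44. Genes leaning to interferon gamma had 9 of 16 lower and 0 higher, with medians of -1.12 and -0.88. The receptor genes Ifnar1 and Ifnar2 were at -0.35 and -0.50 in WT and at -0.37 and -0.34 in Ifnar1-SA, all within 1.5-fold.

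The ISRE is a doubled TTTC, and promoter windows of Ifit1, Ifit3, Ifi208 and Isg15 are printed because each holds a match and each gene was low in the members. The motif searched was TTTC, any 2 bases and TTTC again, on either strand in the 250 bases before the RefSeq start (GRCm38.p6), and the matched 10 bases are in capitals.
Ifit1: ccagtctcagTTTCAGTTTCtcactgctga
Ifit3: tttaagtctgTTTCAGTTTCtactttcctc
Ifi208: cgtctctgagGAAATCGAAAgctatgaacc
Isg15: aaaggaaaccGAAACAGAAAatagctctgg
The windows lie at chr19:34640794-34640823 (plus strand), chr19:34583397-34583426 (plus), chr1:173673597-173673626 (plus) and chr4:156200865-156200894 (minus). Of the 68 list genes 54 had a promoter in the table, and 21 of these (38.9%) held the motif, against 3.46% of all 27025 genes with a promoter. It was present in 12 of 27 promoters (44.4%) of the 33 lower genes and in 2 of 14 (14.3%) of the other measured list genes. The list holds interferon-stimulated genes, and its lower genes were picked by these same counts. A link between the motif and the level in members was not tested. A match is a string in this window and not a bound site.

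**Figure D3:**
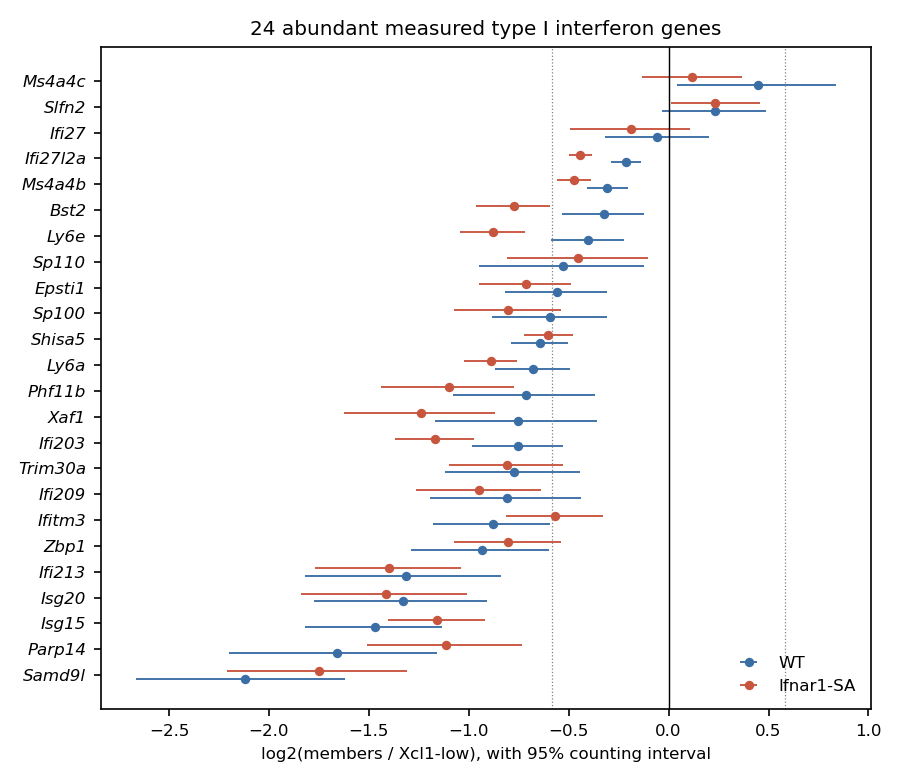
Log2 CPM ratio of members over Xcl1-low cells for 24 abundant measured type I interferon genes, in WT (blue) and Ifnar1-SA (red), with 95% counting intervals as bars and 1.5-fold as dotted lines. Samd9l and Parp14 lie lowest in WT, and only Slfn2 and Ms4a4c lie above 0 in both libraries.

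Macrophage RNA moved the same way, so its values are given beside the interferon genes. Macrophages held the type I interferon list at 20926 CPM (WT) and 26118 CPM (Ifnar1-SA). The 5 macrophage genes of the rule summed to 156 CPM in WT members and 191 CPM in WT Xcl1-low cells, and to 144 and 243 CPM in Ifnar1-SA. In cells with none of their UMIs (39 WT and 60 Ifnar1-SA members, 253 and 169 Xcl1-low cells), the interferon list was as far down, with medians of -0.88 and -1.23 and 29 of 49 genes past 1.5-fold lower. With members and Xcl1-low cells thinned to 2000 UMIs the medians were -0.86 and -0.92. Among cells with fewer than 10 Gzmb UMIs they were -0.77 and -0.996.

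Between the genotypes, Ifnar1-SA members held more Ccl3, Ifng and Gzmb and less Itga4 than WT members. Of 4514 genes with a mean of at least 20 CPM, 424 (9.39%) were past 1.5-fold higher in Ifnar1-SA members and 259 (5.74%) past 1.5-fold lower. The median log2 ratio of Ifnar1-SA over WT was 0.04, and 55.8% of genes were higher at any size. In Xcl1-low cells the shares were 3.61% and 2.89% past 1.5-fold and 56.1% higher at any size, over 4875 genes. Their ratios are given beside those of members and were not tested against them.

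Ccl3, a chemokine for monocytes and T cells, was at 431 CPM in WT members and 2098 CPM in Ifnar1-SA members, a log2 ratio of 2.28 (2.12 to 2.45). It was found in 37 of 106 WT and 71 of 151 Ifnar1-SA members, with a highest cell of 64 and 421 UMIs. The ratio was 0.88 in Xcl1-low cells. Ifng (ENSMUSG00000055170, chromosome 10, 118441046 to 118445892, plus strand), for interferon gamma, was at 592 CPM in WT members and 2069 CPM in Ifnar1-SA members, a ratio of 1.80 (1.66 to 1.95), beside 0.84 in Xcl1-low cells. That difference lay in the upper end of the cells: the median member held 1 Ifng UMI in both libraries, the 90th percentile was 7.5 UMIs for WT and 29 for Ifnar1-SA, and the 5 highest cells held 58.2% and 58.9% of the UMIs. Ifng was found in 66.0% of WT and 60.3% of Ifnar1-SA members. Thinned to 2000 UMIs, the shares were 32.7% (23.8 to 42.6) and 43.9% (35.8 to 52.3), with overlapping intervals, and in macrophages 0.413% and 0.372%.

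The Ifng, Ccl3 and Ccl4 levels of Ifnar1-SA members differed between cells grouped by their sex-linked transcripts. Ifng was at 1030 CPM in the 121 members with Xist only, 4694 CPM in the 17 with Y-linked UMIs only and 10618 CPM in the 13 with neither. Ccl3 was at 1173, 6119 and 7403 CPM in the same cells, and Ccl4 at 4102, 5803 and 17142 CPM. These are sums over few cells. The 13 members with neither held 809 Ifng and 1306 Ccl4 UMIs in all. The highest single Ifnar1-SA member held 608 UMIs of Ifng, and the highest for Ccl4 held 1040. The spread over cells within each group was not examined, so 1 cell may set such a level. With members that had Xist only in both libraries, the ratio of Ifnar1-SA over WT was 0.78 for Ifng, 1.44 for Ccl3 and 0.07 (0.01 to 0.14) for Ccl4. Ifng and Ccl3 stayed higher in Ifnar1-SA at a smaller size, and Ccl4 was nearly level. The Ifng ratio was 1.19 in members with fewer than 3 UMIs of the macrophage genes and 1.17 in members with no UMI of the cell cycle genes. Over all members without the 5 highest cells of each gene in each library, the ratio was 1.78 for Ifng and 2.58 for Ccl3.

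Gzmb was at 451 CPM in WT members and 959 CPM in Ifnar1-SA members, a ratio of 1.09 (0.92 to 1.26), and was found in 42 and 80 cells. Thinned to 2000 UMIs, 25% (17.0 to 34.4) of WT and 39.9% (31.9 to 48.2) of Ifnar1-SA members held a Gzmb UMI, against 1.17% and 1.91% of macrophages. The ratio was 0.22 in Xcl1-low cells. Of the other granzymes, Gzma had a ratio of 0.67, Gzmc 1.001 and Gzmf 0.10. Prf1, for perforin, was at 90.1 and 109 CPM. Of 17 measured cytotoxic genes 15 were higher in Ifnar1-SA members, 6 past 1.5-fold, with a median of 0.28 beside 0.25 in Xcl1-low cells. Crtam was found in 34 WT and 70 Ifnar1-SA members, at 129 and 221 CPM, a ratio of 0.78 (0.44 to 1.12) beside 0.74 in Xcl1-low cells. In the cytokine and chemokine list 16 of 20 genes were higher, 9 past 1.5-fold, with a median of 0.52. Xcl1-low cells were close to this, with 12 of 15 higher, 7 past 1.5-fold and a median of 0.44. Ccl4 was at 3828 and 5195 CPM, a ratio of 0.44, and the 5 highest cells held 70.6% and 51.7% of it. Ccl5 and Ccl1 went the other way, at 2113 against 1342 CPM and 1802 against 1317 CPM. Ccl1 was nonetheless found in 40 of 106 WT and 70 of 151 Ifnar1-SA members. Its 75th percentile was 3 UMIs for WT and 6.5 for Ifnar1-SA, and the 5 highest cells held 50.6% and 37.7% of its UMIs. Tnf was nearly absent, at 4 UMIs in WT and 19 in Ifnar1-SA.

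**Figure D4:**
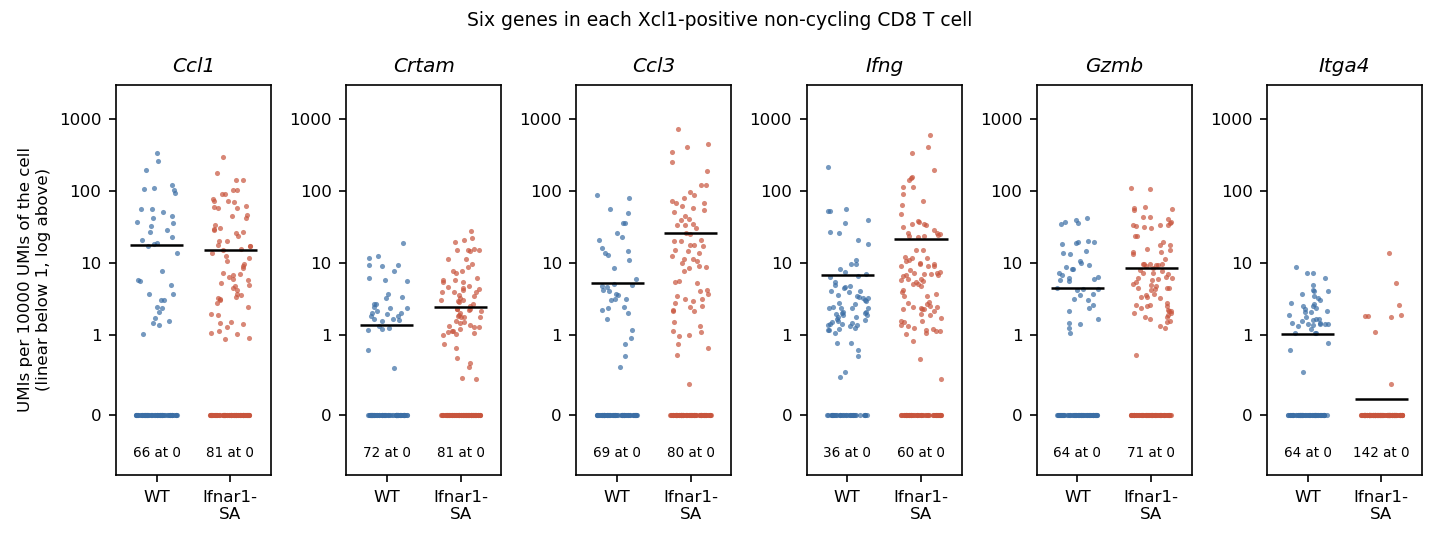
UMIs per 10000 UMIs of the cell for Ccl1, Crtam, Ccl3, Ifng, Gzmb and Itga4 in each member of WT (blue) and Ifnar1-SA (red), on an axis that is linear below 1 and logarithmic above, with the mean as a bar and the number of cells at 0 printed below. Ifnar1-SA cells reach higher Ccl3 and Ifng values, and Itga4 is at 0 in 142 of 151 Ifnar1-SA members against 64 of 106 WT members.

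Activation and receptor genes differed in part. Cd28, the main costimulatory receptor, was at 210 CPM in WT members and 390 CPM in Ifnar1-SA members, in 75 and 122 cells, a ratio of 0.89. Cd69, an early activation marker, had a ratio of 1.15 and Dusp2, a phosphatase induced by T cell receptor signals, 0.96. Nr4a1 was at 140 and 142 CPM, a ratio of 0.02 (-0.34 to 0.38). Of 25 measured genes of the activation list 22 were higher, 6 of them past 1.5-fold, with a median of 0.23 beside 0.27 in Xcl1-low cells. Lag3 was at 222 and 378 CPM, a ratio of 0.77, while Pdcd1 was at 380 and 381 CPM, a ratio of 0.00 (-0.21 to 0.22). Tox, a regulator of exhaustion, was lower at -0.84 (-1.32 to -0.37), and Runx3, which maintains the CD8 lineage, at -0.72. Cd9, a tetraspanin, was at 45.0 and 121 CPM, in 28 and 61 cells. Anxa1, for annexin A1, was found in 12 WT and 40 Ifnar1-SA members, at a ratio of 1.90. Bdh2, a dehydrogenase gene, was at 27.3 and 78.3 CPM, in 9 and 26 cells.

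Itga4 (ENSMUSG00000027009, chromosome 2, 79255426 to 79333123, plus strand), for the alpha 4 integrin chain, was the lowest gene in Ifnar1-SA members that many WT cells carried. WT members held it at 93.6 CPM (79 UMIs in 42 of 106 cells) and Ifnar1-SA members at 20.5 CPM (22 UMIs in 9 of 151 cells), a ratio of -2.19 (-2.94 to -1.49). Thinned to 2000 UMIs, 15.4% (9.06 to 23.8) of WT and 2.03% (0.42 to 5.81) of Ifnar1-SA members held an Itga4 UMI. In Xcl1-low cells it was at 153 and 49.9 CPM, a ratio of -1.62. Within Ifnar1-SA the 17 Y-linked members held 10 of the 22 UMIs, at 95.6 CPM, and the 121 members with Xist only were at 13.5 CPM. The ratio was -2.79 with Xist-only members of both libraries and -2.80 with members free of cell cycle UMIs. Dropping the 5 members richest in Itga4 from either genotype gave -4.24. Those members held 81.8% of its UMIs for Ifnar1-SA and 25.3% for WT, so dropping them had to lower the ratio. The value of -4.24 rests on few Ifnar1-SA UMIs and does not test the size of the difference. Only 7 genes passed the naming rule as lower. The others were Ier5l at -2.13, Chchd10 at -1.62, Mri1 at -1.62, Chpt1 at -1.25, AY036118 at -0.78, and Il17a, whose 57 UMIs all came from 1 WT cell. Proliferation genes outside the rule leaned the same way, with 16 of 19 lower, 7 past 1.5-fold, and a median of -0.47. Xcl1-low cells leaned so too, with 4 of 18 higher in Ifnar1-SA and a median of -0.18. In members Mcm2, part of the DNA replication helicase, was at -1.20 and Cdk6, a kinase of the G1 phase, at -0.97. The nucleotide enzyme gene Dut was at -0.67, while Ccnd2 was at 0.41. The rule caps cell cycle UMIs at fewer than 3 whatever the depth of a cell, and the part of this cap was not tested.

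The interferon lists were somewhat higher in Ifnar1-SA members. Of 44 measured type I genes, 36 were higher and 14 past 1.5-fold, with a median of 0.36 beside 0.36 in Xcl1-low cells. Isg15 had a ratio of 0.82 (0.44 to 1.22) and Irf7 0.91 (0.14 to 1.72), which was 2.19 with members thinned to 2000 UMIs. The thinned Irf7 ratio rests on few UMIs, since 19 of 106 WT members held any before thinning. Ly6a, a surface marker raised by interferon, was at 327 and 565 CPM. Ifnar1 was at 62.8 CPM in WT members and 70.9 CPM in Ifnar1-SA members, a ratio of 0.17 (-0.35 to 0.71). The transcript count does not show the allele. Genes leaning to interferon gamma had 11 of 15 higher with a median of 0.45 beside 0.26 in Xcl1-low cells. Stress genes of tissue dissociation also had 17 of 18 higher, with a median of 0.26 beside 0.02 in Xcl1-low cells, and Fos, Jun and Atf3 were at 1.34, 1.48 and 1.04. The part of this stress signal in the other differences was not tested.

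**Figure D5:**
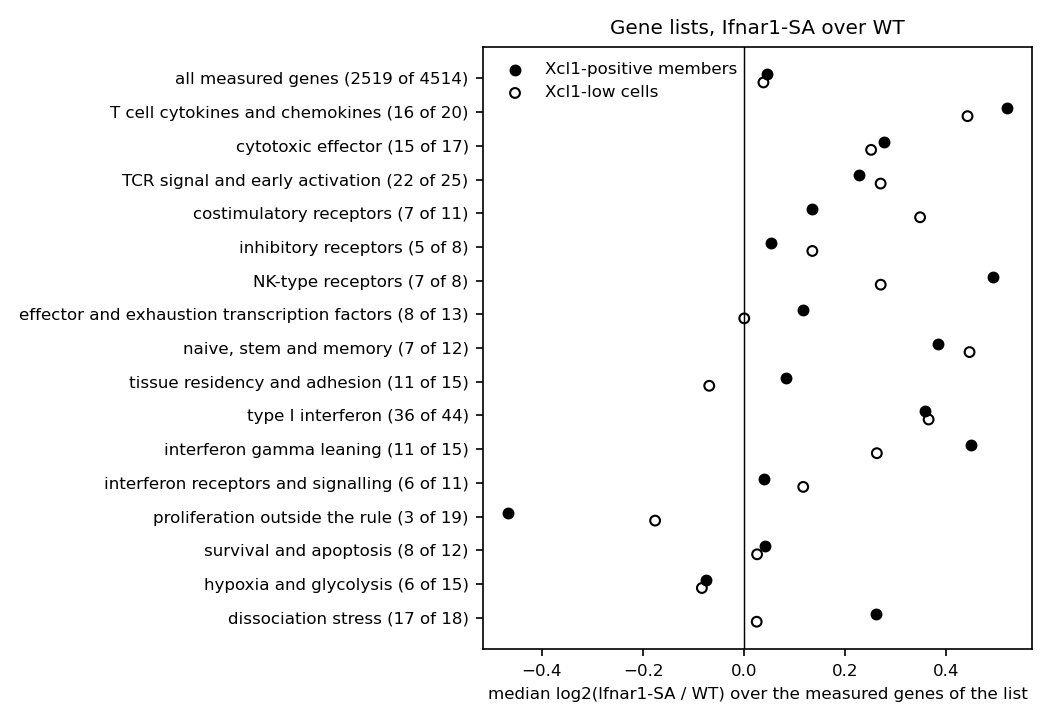
Median log2 ratio of Ifnar1-SA over WT over the measured genes of each list with at least 7 measured genes, in members (filled) and in Xcl1-low cells (open), with the number of genes higher in Ifnar1-SA members of the number measured in parentheses. In members most lists lie right of 0, the cytokine list at 0.52, and the proliferation list lies at -0.47. In Xcl1-low cells the same lists lie at 0.44 and -0.18.

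The high ratios of MHC class II genes rested on 2 cells. H2-Aa, H2-Ab1, H2-Eb1 and Cd74, which present antigen in dendritic cells, macrophages and B cells, had ratios of 3.38, 3.32, 2.94 and 2.15. Of their 1225 UMIs in Ifnar1-SA members, 88.9% lay in 2 members, and 1 member held 1054. Without these, H2-Ab1, H2-Eb1 and Cd74 were lower in Ifnar1-SA, at -0.36, -0.78 and -0.44, and H2-Aa was at 0.12. Il2, the T cell growth factor, had a ratio of 3.47 from 2 WT and 7 Ifnar1-SA cells, and its highest cell held 85 of the 127 Ifnar1-SA UMIs. The 172 UMIs of 1 Ifnar1-SA cell made up most of the 271 of Spp1, for osteopontin. Tyrobp, an adaptor of NK and myeloid receptors, was at 20.1 and 66.2 CPM. Beside these, the 13 macrophage markers summed to 436 CPM in WT members (11 of 13 detected, with Arg1 at 0) and 1660 CPM in Ifnar1-SA members (13 of 13), and to 631 CPM in Ifnar1-SA members without the 2 cells. Of 7 NK markers, Klra4 and Klra8 were at 0 in both libraries and the sum was 71.1 and 156 CPM. Of 6 gamma-delta T cell markers 3 were detected in members of each library, summing to 9 UMIs for WT and 5 for Ifnar1-SA. Trdc was at 0 in both, and Tcrg-C2 was at 7 and 3 UMIs. Of 6 B cell markers 3 were detected in each, with sums of 35 and 36 UMIs. Cd79a and Ms4a1 were at 0 in both, while Ighm was at 14 and 25 UMIs in 13 and 20 cells and Igkc at 20 and 9.

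Within the members, the genotype ratios of summed UMIs varied between bands of Xcl1. In members with 3 to 5 Xcl1 UMIs (32 WT, 43 Ifnar1-SA cells) Ifng was at 360 and 370 CPM. With 6 to 14 UMIs (31 and 49 cells) it was at 156 and 1299 CPM, and with 15 or more (43 and 59 cells) at 996 and 3868 CPM. The summed levels were close in the lowest band and higher in Ifnar1-SA in the other bands. Over all Ifnar1-SA members the 5 highest cells held 58.9% of the Ifng and 49.0% of the Ccl3 UMIs. The spread over cells was not examined in the upper bands, so few cells may set their levels. Within the lowest band, Ifng was at 267 and 94.0 CPM in WT cells with 3 and 4 Xcl1 UMIs against 367 and 226 CPM in Ifnar1-SA, and at 902 CPM in the 8 WT cells with 5 against 490 CPM in 11 Ifnar1-SA cells. In the middle band Ccl3 amounted to 15 UMIs in 31 WT cells and 648 UMIs in 49 Ifnar1-SA cells. Ccl3 had ratios of -0.79, 4.79 and 2.43 from the lowest to the highest band, and Ccl4 -1.97, 0.91 and 0.90. Both were thus lower in Ifnar1-SA in the lowest band. That direction rested on the 8 WT cells with 5 Xcl1 UMIs, where Ccl4 was at 12028 and Ccl3 at 1334 CPM against 1703 and 374 CPM in Ifnar1-SA. At 3 and 4 UMIs Ccl4 was at 520 and 411 CPM in WT against 295 and 1048 in Ifnar1-SA, and Ccl3 at 119 and 47.0 against 120 and 290 CPM. Ccl5 was lower in Ifnar1-SA in the lowest and highest bands, at -1.75 and -1.22, and higher in the middle one, at 1.17 (0.95 to 1.39). Crtam was higher in Ifnar1-SA in each band, at 1.70, 0.73 (-0.28 to 1.82) and 0.81, though the interval of the middle band holds 0. Gzmb was higher in each too, at 0.34 (0.0023 to 0.68), 2.18 and 0.86. Itga4 was lower in each, at -2.31, -2.70 and -1.73. Split by granzyme B, the 92 WT and 125 Ifnar1-SA members with fewer than 10 Gzmb UMIs held Ifng at 331 and 1190 CPM, and the 14 and 26 members with more at 1920 and 4821 CPM. The Crtam ratio was 0.95 (0.60 to 1.32) with fewer than 10 Gzmb UMIs and -0.06 (-1.06 to 0.99) with more. Ifng and Ccl3 were found together in 32 of 106 WT members and 55 of 151 Ifnar1-SA members, and Ifng with Tcf7 in 10 and 5.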

How the data were processed

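Raw UMI counts per gene and barcode were deposited by the authors, made with Cell Ranger 4, per the file headers, and mm10 was the build named in the submitters' processing notes; the sources used here give no annotation release. The matrices were unfiltered. Barcodes with at least 1000 UMIs, 500 genes and at most 10% mitochondrial UMIs were kept, and no doublet caller was run. Members, gene lists and the rule were chosen with earlier results of these data known. UMIs were summed over members per library and given as CPM. Log2 ratios carry exact conditional binomial 95% intervals, and shares exact Clopper-Pearson ones; a gene at 0 in 1 library was set against a floor of 3 UMIs. With 1 library per genotype no test was made. The text names the 12 highest and 12 lowest genes per comparison whose whole interval lay past 1.5-fold, given 50 CPM in a library and 30 UMIs in total, plus a set of list genes. The ranking skipped rule genes and those of mitochondria, ribosomes, sex chromosomes, antigen receptor segments and predictions. Other genes mentioned from the lists were chosen after their values were seen. Macrophage barcodes had at least 20 UMIs of the macrophage genes and fewer than 3 of the T cell genes. Promoters came from RefSeq and positions from GENCODE, both on GRCm38. The ratio and its interval were tested on simulated counts with counting error only. That simulation did not gather UMIs in a few cells, so it does not show how the intervals hold for such genes. Python 3.11.15, numpy, scipy and pandas were used. A few genes of the lists and of the ranking are not reported here. Alternatives varied depth, mitochondrial, Xcl1, macrophage and cycling limits, cells with most UMIs, sex-linked transcripts, thinning, centring and the CPM minimum.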

Additional observations from a re-analysis of the deposited data

Results flagged for a closer look

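For 12 named or listed genes the ratio of Ifnar1-SA over WT went one way in members and the other way in Xcl1-low cells, with both counting intervals outside 0. The difference between the cell sets was not tested. The difference in log2 ratio, members minus Xcl1-low cells, was -2.96 for Dapl1, -2.34 for Ccl1, -1.48 for Ccr7, -0.90 for Cd226, -0.88 for Stat4, -0.70 for Ccl5 and -0.62 for Tnfrsf18. It was 1.28 for Gzma, 1.22 for Dnajb1, 1.05 for Rgs2, 0.86 for Hspa1b and 0.64 for Hspa1a. Ccl1 was at 1802 CPM in WT members and 1317 CPM in Ifnar1-SA members, and at 79.3 and 293 CPM in Xcl1-low cells. It was found in 40 WT and 70 Ifnar1-SA members, with 50.6% and 37.7% of its UMIs in 5 cells. Dapl1 came from 11 WT and 8 Ifnar1-SA members, with 82.8% and 91.2% of its UMIs in 5 cells, and Gzma from 12 and 23 members.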

How the results depend on the processing

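No paired analysis was possible because each genotype is 1 library. The larger member share of non-cycling CD8 T cells in Ifnar1-SA, 12.4 percentage points, was 9.59 to 13.9 points under 9 alternatives, which changed limits or thinned the cells. The split by sex-linked transcripts is not in that range. With Xist only the share was 15.1% in WT and 33.0% in Ifnar1-SA, and with Y-linked UMIs only it was 16.7% in Ifnar1-SA. With the mean level set at 5 CPM in place of 20, genes past 1.5-fold numbered 1261 higher and 969 lower in Ifnar1-SA members, 448 higher and 966 lower in members than in Xcl1-low cells, and the axis median was 0.28; at 50 CPM they numbered 122, 62, 141 and 204, with 19 type I interferon genes lower. Thinned to 2000 UMIs, 834 genes were higher and 711 lower between genotypes, and without the 5 top cells of each gene 739 were higher. Unthinned, the difference in the share of members with a UMI was -5.77 points for Ifng and -33.7 for Itga4.

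Some ratios between genotypes reversed. Without the 5 top cells the ratio was -0.90 for Il2, -0.61 for H2-Ab1, -0.81 for H2-Eb1, -0.16 for Cd74 and -0.36 for Areg. Without members with 10 or more MHC class II UMIs, an alternative chosen after seeing the data, H2-Ab1, H2-Eb1 and Cd74 were at -0.36, -0.78 and -0.44. With at least 5 Xcl1 UMIs they were at -0.19, -0.74 and -0.59, and at 5 per 10000 UMIs at -0.43, -0.90 and -0.49. Without members above 20000 UMIs H2-Ab1 was at -0.071 and H2-Eb1 at -0.53. Areg was at -0.29 with macrophage UMIs under 3, Ccl4 at -0.0073 with no cycling UMI, and thinning put Tnfsf11 at -0.068, Hsp90ab1 at -0.0099 and Lilrb4a at 0.076. The cause was not tested. Members number 106 and 151, so genes under 20 CPM rest on few UMIs and were left out.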
